A study of Mus musculus with 6 samples.

Results

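The genes described here are 45 members of the TGF-beta and BMP signalling system, measured in breast tumours of mice on arrays that name 19057 genes. They were chosen by symbol, from the family's ligands, receptors, antagonists, Smads and Id genes, with earlier results of these data known. Of the 45 members, 42 had at least 1 probe annotated to the symbol, 76 probes in all among the 45279 analysed. Another 3 (Gdf15, Inhbb and Smad4) had none and were not analysed here. A member counted as measured when a probe had a detection p-value below 0.05 on at least 3 of the 6 arrays, which held for 29 members.

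The series compared 3 knockout tumours, from mice with floxed Cyp27b1 alleles and Cre, with 3 control tumours, from mice with the same floxed alleles and no Cre. All 6 were breast tumours on the FVB background, each profiled on a biotin-labelled Illumina bead array. Cyp27b1 encodes the enzyme that activates vitamin D, and the series title places its deletion in the mammary epithelium. Neither the promoter driving Cre nor the age of the mice or the cause of the tumours is stated in the sources. Cre was present in the knockout tumours alone, and what it does by itself cannot be told apart from the deletion. Since the labels link no tumour to a named mouse, the p-values reflect variation among these 6 samples, which may be technical.

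TGF-beta, activins and BMPs are secreted dimers that bring together type II and type I receptor kinases on the cell surface. The type I receptor phosphorylates receptor-regulated Smads (Smad2 and Smad3 for TGF-beta and activin, Smad1 and Smad5 for BMP), which join Smad4 and act in the nucleus. In the mammary gland TGF-beta restrains epithelial growth, and in tumours it also acts on fibroblasts and other stromal cells. Follistatins, noggin, chordin and gremlin bind ligands outside the cell, and Smad6, Smad7, Ski and Skil limit the signal inside it.

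The summed signal of an array ran from 1.23e+07 to 1.48e+07 in the knockout and from 1.07e+07 to 1.34e+07 in the control tumours. Between 35.5% and 36.1% of probes were above background in the knockout tumours, against 33.4% to 35.3% in the control tumours. The probe for Cyp27b1 stayed below background in each tumour, at 4.36 ± 0.07 (SD, n = 3) on the normalized log2 scale in knockout and 4.34 ± 0.05 (SD, n = 3) in control tumours. Its log2 difference of 0.02 had an exact two-sided permutation p of 0.80, where 3 against 3 tumours cannot go below 0.10, so the probe does not check the deletion.

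Luminal and fibroblast markers differed between the groups in their mean level. The mean log2 level of 10 measured luminal epithelial markers was 9.69 to 10.23 in the knockout tumours, against 7.86 to 8.70 in the control tumours. For 10 measured fibroblast markers it was 5.15, 6.27 and 7.09 in knockout tumours 1, 2 and 3, against 8.46, 7.85 and 9.91 in control tumours 1, 2 and 3. The summed normalized signal of the fibroblast markers was 442 to 3329 in knockout and 8260 to 22265 in control tumours. Fewer fibroblasts and less RNA per fibroblast cannot be told apart in whole tumours. Of the 10 measured luminal markers 5 were called higher and 0 lower. Of the 10 measured fibroblast markers 5 were called lower and 0 higher. Over all measured genes 4.47% were called higher and 5.63% lower. Ehf of the 15 luminal markers listed and Dpt of the 12 fibroblast markers listed never rose above background. Epcam, Esr1 and Foxa1 of the luminal list did not pass the filter, and Prlr had no named probe. The 8 measured basal and myoepithelial markers went both ways. The contractile genes Acta2, Myh11 and Actg2 fell (-2.45, -3.17 and -3.90). The brightest Mylk probe gave -2.64 without a call, and dimmer ones gave -2.78 and -2.77 with a call (limma adjusted p = 0.029 and 0.045). The keratin Krt14 rose (1.39), and Trp63, Krt17 and Krt5 gave 1.55, 0.12 and -0.11 without a call.

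Among the 29 measured members, 5 fell in the knockout tumours and 0 rose (limma, adjusted p below 0.05 over all kept probes). The 5 were Fstl3 and Fstl1 of the follistatin family, the TGF-beta type II receptor Tgfbr2, the activin subunit Inhba and the BMP type I receptor Bmpr1b. Bmpr1b passed the filter through the control tumours alone, so the filter favoured its fall. With detection required on all 6 arrays the other 4 were tested and stayed called. At an unadjusted p below 0.05 limma gave 9 members lower (31.0% of those measured, against 13.1% of all genes) and 2 higher (6.90%, against 13.4% of all genes). The share called lower was 17.2% of measured members, where 5.63% of all 9354 measured genes were lower, and the background for a rise was 4.47%. The median log2 difference was -0.37 over the members and 0.05 over all measured genes, with 19 members below 0 and 10 above. When a tumour was left out, the median over the members tested ran from -0.36 to -0.19, smaller in size each time. With Bmpr1b and Chrd, undetected in every knockout tumour, set to their bounds the median was also -0.37. The median could not move in this step, because both genes stayed below it. The groups did not overlap at 9 lower and 2 higher members, 31.0% and 6.90% of those measured, where 14.9% and 17.2% of all genes had such a separation (32.1% in either direction). Bmpr1b and Chrd are among the 9 lower members here and at the unadjusted p. Both passed the filter through the control tumours alone, which favours a lower knockout value.

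**Figure D1:**
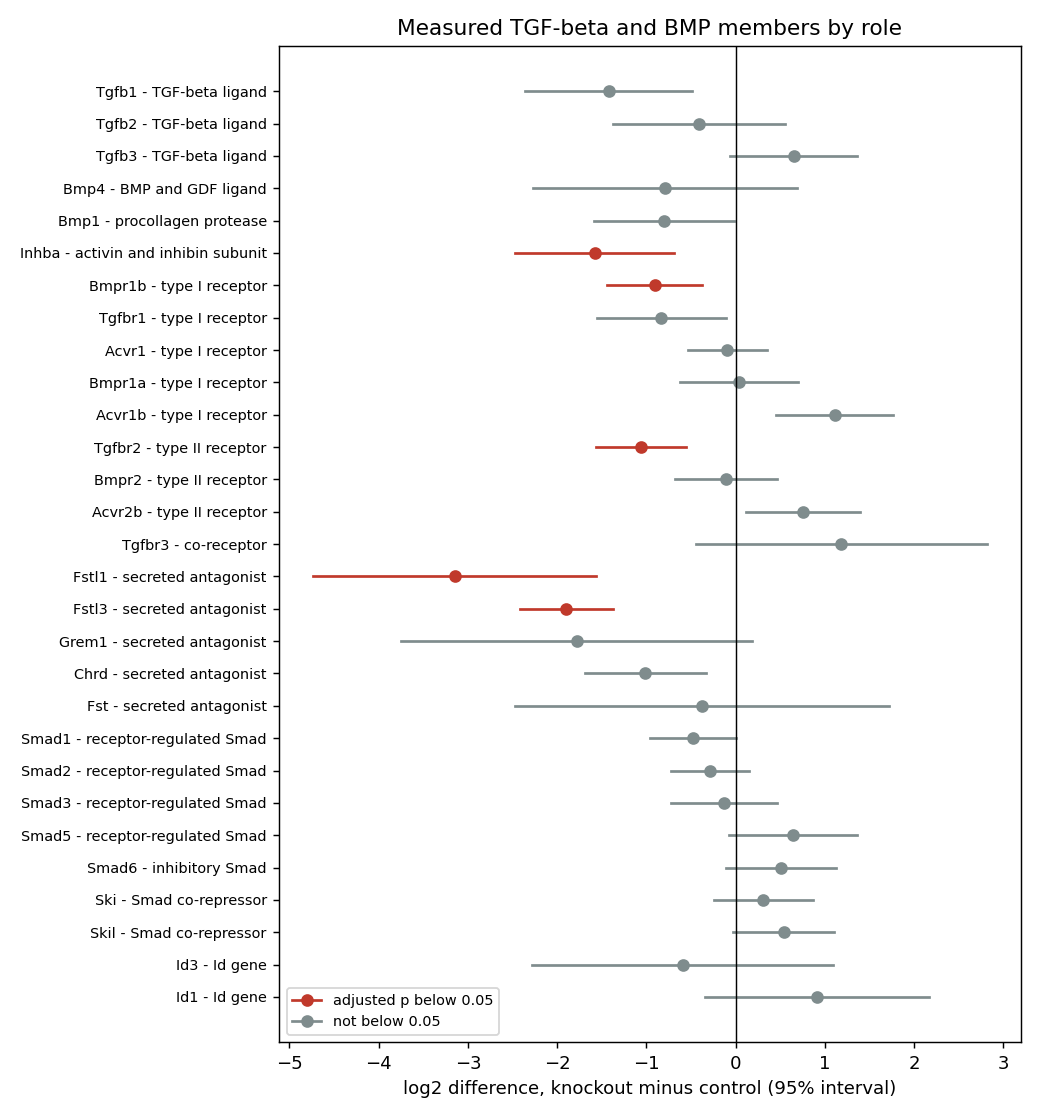
Log2 difference between knockout and control tumours for each of the 29 measured members, ordered by role, with its 95% interval from limma (3 tumours a group). The 5 called members, in red, all lie below 0, and Fstl1 has the lowest estimate at -3.15.

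The start regions of the 4 brightest genes that fell are shown because these members were lower together. Each is RefSeq sequence of build GRCm38.p6, 250 bases before to 50 bases after the annotated start, read 5′ to 3′ on the gene's strand. Capitals mark CAGAC or its reverse complement GTCTG, a short form of the Smad binding element. Fstl3 lies at chr10:79777024-79777323 on the plus strand, Tgfbr2 at chr9:116175314-116175613 on the minus strand, Fstl1 at chr16:37776805-37777104 on the plus strand and Inhba at chr13:16011601-16011900 on the plus strand.
Fstl3: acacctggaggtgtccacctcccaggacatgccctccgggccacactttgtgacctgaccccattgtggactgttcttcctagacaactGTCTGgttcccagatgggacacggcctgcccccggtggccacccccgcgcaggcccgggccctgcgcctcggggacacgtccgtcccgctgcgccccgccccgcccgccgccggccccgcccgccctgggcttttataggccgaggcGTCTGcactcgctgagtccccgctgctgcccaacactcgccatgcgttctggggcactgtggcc
Tgfbr2: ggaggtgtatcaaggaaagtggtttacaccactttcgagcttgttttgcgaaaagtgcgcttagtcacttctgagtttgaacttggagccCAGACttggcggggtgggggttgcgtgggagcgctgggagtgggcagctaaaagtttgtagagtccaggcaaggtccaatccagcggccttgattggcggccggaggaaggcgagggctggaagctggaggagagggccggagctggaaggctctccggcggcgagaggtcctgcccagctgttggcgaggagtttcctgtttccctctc
Fstl1: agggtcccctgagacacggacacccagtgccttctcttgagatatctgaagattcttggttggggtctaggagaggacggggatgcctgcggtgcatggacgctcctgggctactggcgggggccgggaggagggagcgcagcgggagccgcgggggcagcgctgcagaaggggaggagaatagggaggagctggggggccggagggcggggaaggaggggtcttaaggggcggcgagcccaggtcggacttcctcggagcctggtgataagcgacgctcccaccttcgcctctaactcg
Inhba: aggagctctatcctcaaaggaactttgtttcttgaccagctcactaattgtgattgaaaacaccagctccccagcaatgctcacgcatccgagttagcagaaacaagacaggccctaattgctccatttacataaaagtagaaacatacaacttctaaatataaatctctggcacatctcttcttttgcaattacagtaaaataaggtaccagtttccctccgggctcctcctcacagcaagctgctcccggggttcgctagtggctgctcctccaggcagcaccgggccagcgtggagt
The Fstl3 window held 2 copies and the Tgfbr2 window 1, and the windows of Fstl1 and Inhba held 0. Over 36 windows of the 30 members with an entry, 50% held the motif on either strand, against 49.6% of all 32851 windows of this length. The GC-rich hexamer GGCGCC, a BMP-type Smad motif that reads the same on both strands, was in 30.6% of member windows and 11.9% of all windows, and in none of the 4 shown. GTCTAGAC, the palindromic Smad element, was in 1 member window, that of Smad6 (2.78%, against 0.213% of all windows). These matches describe the letters only; a member with several annotated starts has several windows, which can overlap.

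Fstl3, a secreted protein that binds and neutralises activins, had log2 values of 5.88, 6.12 and 5.87 in knockout tumours 1, 2 and 3, against 7.68, 7.66 and 8.22 in control tumours 1, 2 and 3. All 3 knockout tumours lay below every control tumour, and neither group spread by more than 0.32 (SD). The log2 difference was -1.90 ± 0.22 (SE, limma adjusted p = 0.0041), so the knockout level was 0.268 of the control level. In the deposited signals it stood at 159, 152 and 150 in knockout and 298, 294 and 291 in control tumours. Its limma call survived the removal of any single tumour, with adjusted p between 0.0072 and 0.028. With the authors' values the difference was -0.78 and still called.

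Fstl1, a secreted glycoprotein of the follistatin-like family that fibroblasts and other mesenchymal cells make, spread widely among the knockout tumours. It stood at 5.50, 6.56 and 8.44 there, against 9.31, 10.12 and 10.51 in the control tumours. The groups did not overlap, and knockout 3 lay closest to the controls, as it did in the mean of the fibroblast markers (7.09). The log2 difference was -3.15 ± 0.69 (SE, limma adjusted p = 0.029), a level of 0.113 of the control. The limma call was lost without knockout 2 (adjusted p = 0.10), control 1 (0.075), control 2 (0.081) or control 3 (0.11), and the difference was -1.99 with the authors' values. The part of the fibroblast markers in this fall was not tested.

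Follistatin itself (Fst), which neutralises activins and binds some BMPs, gave 6.37, 9.45 and 9.76 in the knockout tumours, against 8.13, 8.47 and 10.11 in the control tumours. Knockout 1 was the lowest of the 6 and the other knockout tumours lay within the control range. Its log2 difference of -0.37 ± 0.91 (SE, limma adjusted p = 0.85) turned to 0.71 without knockout 1 and to 0.22 without control 3. The BMP antagonist Grem1 had 5.26, 4.97 and 6.01 in knockout tumours, against 7.41, 5.15 and 9.04 in control tumours. Control 2 lay inside the knockout range, and the difference of -1.78 ± 0.85 (SE) was not called (limma adjusted p = 0.25). Without control 2 it was -2.81 and called (limma adjusted p = 0.031).

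Chordin (Chrd), another BMP antagonist, was not above background in any knockout tumour and was above it in all 3 control tumours. Its log2 values were 4.47, 4.85 and 4.90 in the knockout tumours, against 5.57, 5.35 and 6.34 in the control tumours. Its mean was 4.74 in knockout and 5.75 in control tumours, at least 1.79-fold lower, and the limma adjusted p of 0.071 did not pass. Such a bound sets the bright group's mean against, per array of the dim group, the higher of the detection floor and the probe's own value. The floor lay between 4.899 and 5.002. Noggin (Nog) was above background on 2 arrays and was not tested. Of the 5 measured secreted antagonists 2 fell, where 5.63% of all measured genes did, and the other 3 did not pass the test.

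**Figure D2:**
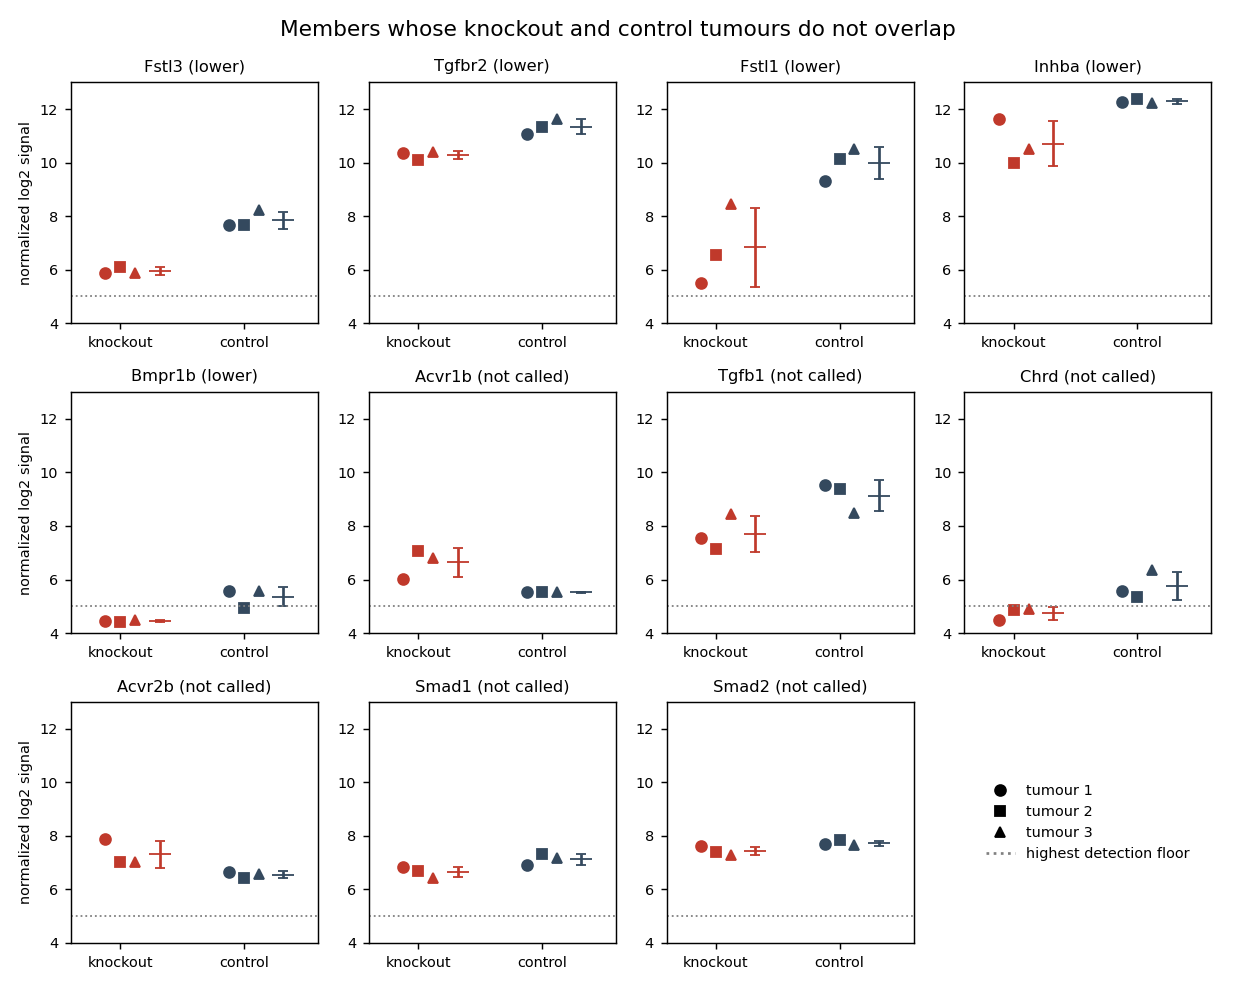
Normalized log2 signal of the 11 members whose groups do not overlap, in knockout (red) and control (dark) tumours, with the mean and SD beside the points and the highest detection floor as a dotted line. Fstl3, at 5.87 to 6.12 in knockout tumours, and Inhba, at 12.22 to 12.39 in control tumours, show the narrow groups, while Bmpr1b and Chrd lie at the floor in the knockout tumours.

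Inhba encodes the subunit of activin A. It had 11.63, 9.996 and 10.50 in the knockout tumours, against 12.25, 12.39 and 12.22 in the control tumours. The control tumours lay close together (SD 0.09) and knockout 1 came closest to them. The log2 difference was -1.58 ± 0.39 (SE, limma adjusted p = 0.044), a level of 0.335 of the control. The limma call held without knockout 1 (adjusted p = 0.0045) and was lost without knockout 2 (0.12), knockout 3 (0.11), control 1 (0.14), control 2 (0.11) or control 3 (0.12). Inha, the inhibin alpha subunit, was not above background in any tumour.

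None of the 3 TGF-beta ligands was called. Tgfb1, the main isoform of immune and stromal cells, gave 7.54, 7.15 and 8.45 in the knockout tumours, against 9.55, 9.38 and 8.47 in the control tumours. The groups did not overlap, but knockout 3 and control 3 were almost level. The log2 difference was -1.42 ± 0.40 (SE, limma adjusted p = 0.068), and without knockout 3 it was -1.80 (adjusted p = 0.030). Of the 4 measured macrophage markers none was called, and they went both ways: Cd14 gave 2.602, without overlap of the groups, Lyz2 -2.08, Csf1r -0.57 and Ctss -0.10. Among 10 T and NK cell markers 7 were never above background and 2 were measured. Of these Thy1 fell by 3.02 log2 units and is also a fibroblast marker, and Cd3e was not above background in any knockout tumour and was not called. The part of these cells in the Tgfb1 values was not tested.

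Tgfb3, an isoform that rises in the involuting mammary gland, stood at 9.20, 10.25 and 9.68 in knockout tumours, against 9.43, 8.91 and 8.83 in control tumours. Knockout 1 fell inside the control range, and the difference was 0.65 ± 0.31 (SE, limma adjusted p = 0.24). Tgfb2 had 5.75, 6.80 and 6.74 in knockout and 7.27, 7.23 and 6.03 in control tumours, with overlapping groups and a difference of -0.41 ± 0.42 (SE). The 95% intervals ran from -0.06 to 1.36 for Tgfb3 and from -1.37 to 0.55 for Tgfb2.

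Of the BMP and GDF ligands, Bmp4 alone was measured. It was above background in 1 knockout and in all 3 control tumours. Its values were 6.68, 4.58 and 4.53 in knockout and 5.53, 5.59 and 7.05 in control tumours, and the difference of -0.79 ± 0.64 (SE) was not called (limma adjusted p = 0.51). Knockout 1 and control 3 were the high tumours. Gdf10 was above background in control 3 alone, at 6.25, and the other 5 arrays lay between 4.40 and 4.62. Bmp7 was above background in knockout 2 alone, at 5.37, and Bmp6 in control 1 alone, at 4.98. Bmp2, Bmp3 and Bmp5 were not above background on any array.

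Bmp1, a metalloprotease that trims procollagens and is no BMP ligand, had 4 measured probes. The brightest gave 10.69, 10.06 and 11.36 in knockout tumours, against 11.75, 11.22 and 11.57 in control tumours. Knockout 3 lay inside the control range, and the difference was -0.80 ± 0.34 (SE, limma adjusted p = 0.19). The 4 probes ranged from -1.18 to -0.80, and the dimmest was called (limma adjusted p = 0.043).

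Tgfbr2, the type II receptor that binds TGF-beta, was lower in every knockout tumour. It gave 10.37, 10.10 and 10.39 there, against 11.06, 11.34 and 11.64 in the control tumours. The log2 difference was -1.06 ± 0.22 (SE, limma adjusted p = 0.024), a level of 0.480 of the control. Its second measured probe gave -0.76 and was not called (limma adjusted p = 0.095). The call of the brighter probe was lost without knockout 2 (limma adjusted p = 0.097), knockout 3 (0.052), control 1 (0.056), control 2 (0.063) or control 3 (0.081), with differences from -1.20 to -0.91. Fibroblast markers were lower in the same tumours, and their part in the fall of Tgfbr2 was not tested.

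Tgfbr1, its type I partner, had 9.74, 9.95 and 10.28 in knockout tumours, against 10.86, 11.37 and 10.23 in control tumours. Control 3 lay just below knockout 3. The difference of -0.83 ± 0.31 (SE) did not pass (limma adjusted p = 0.15). Tgfbr3, or betaglycan, presents TGF-beta to Tgfbr2. It gave 7.61, 8.15 and 7.58 in knockout and 6.19, 5.21 and 8.39 in control tumours, so control 3 exceeded every knockout tumour. The difference of 1.18 ± 0.70 (SE) was not called (limma adjusted p = 0.36), and without control 3 it was 2.11 and called (adjusted p = 0.033).

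Acvr1b, the type I receptor of activin, was higher in all 3 knockout tumours, at 6.03, 7.08 and 6.81, against 5.51, 5.55 and 5.52 in the control tumours. Its difference of 1.11 ± 0.28 (SE) had a limma adjusted p of 0.05004, just above the threshold. Without knockout 1 it was 1.37 (limma adjusted p = 0.0093), and without any other tumour the adjusted p was between 0.11 and 0.15. A dimmer probe gave 0.25, and the authors' values 0.32. Acvr2b, a type II receptor of activin, had 7.90, 7.01 and 7.02 in knockout and 6.66, 6.41 and 6.58 in control tumours. Those groups did not overlap either, and the difference of 0.76 ± 0.28 (SE) was not called (limma adjusted p = 0.14). Acvr2a was above background on 2 arrays and was not tested.

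Bmpr1b, a type I BMP receptor, lay at the detection floor. It was not above background in any knockout tumour, at 4.43, 4.43 and 4.50, and was above it in the control tumours, at 5.57, 4.94 and 5.58. Its means of 4.45 in knockout and 5.36 in control tumours gave a bound of at least 1.37-fold lower (limma adjusted p = 0.049). The deposited signals differed little, at 103, 100 and 107 in knockout and 134, 116 and 124 in control tumours, and the authors' values gave -0.21. The call was lost without knockout 1 (limma adjusted p = 0.083), knockout 2 (0.14) or knockout 3 (0.10), and without any control tumour the probe no longer passed the filter.

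The widely expressed BMP receptors were almost level. Bmpr1a had 6.94, 7.55 and 7.40 in knockout and 7.16, 7.75 and 6.86 in control tumours, with a difference of 0.04 ± 0.29 (SE) and a 95% interval from -0.62 to 0.70. Bmpr2 gave 9.497, 9.81 and 10.01 in knockout and 9.53, 10.22 and 9.87 in control tumours (difference -0.11, interval -0.68 to 0.47). Acvr1 gave 7.74, 7.65 and 7.86 in knockout and 7.87, 8.002 and 7.65 in control tumours (difference -0.09, interval -0.54 to 0.35). None of the 3 was called by limma. Acvrl1, a receptor of endothelial cells, was not above background in any tumour.

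The 4 receptor-regulated Smads had log2 differences from -0.48 to 0.64, and none was called by limma. Smad1 gave 6.84, 6.67 and 6.43 in knockout tumours, against 6.91, 7.31 and 7.16 in control tumours. Smad2 gave 7.61, 7.39 and 7.30 in knockout tumours, against 7.70, 7.83 and 7.64 in control tumours. Both were lower in each knockout tumour than in any control tumour, by -0.48 ± 0.21 (SE, limma adjusted p = 0.21) for Smad1 and by -0.29 ± 0.19 (SE, limma adjusted p = 0.40) for Smad2. A dimmer Smad1 probe gave -0.18 with overlapping groups.

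Smad3 had 10.09, 9.77 and 9.21 in knockout and 9.68, 9.90 and 9.89 in control tumours, a difference of -0.13 ± 0.26 (SE). Smad5 had 7.69, 7.92 and 8.05 in knockout and 7.47, 7.70 and 6.56 in control tumours, a difference of 0.64 ± 0.31 (SE). Neither was called, and the groups overlapped for both. Smad6, which inhibits BMP signalling, was above background in all 3 knockout tumours and in 1 control tumour, at 5.90, 5.44 and 4.93 in knockout and 5.02, 4.85 and 4.87 in control tumours. Its difference of 0.51 ± 0.27 (SE) was not called (limma adjusted p = 0.29). Smad7, the inhibitor that TGF-beta induces, was not above background on any array.

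Ski and Skil, co-repressors that bind Smads, were not called. Ski ranged from 8.68 to 9.36 in knockout and from 8.48 to 8.92 in control tumours (difference 0.31 ± 0.24, SE). Skil had 9.82, 9.96 and 10.05 in knockout and 9.20, 9.87 and 9.15 in control tumours (difference 0.54 ± 0.24, SE). Controls 2 and 3 lay within the knockout range for Ski, and control 2 for Skil. Bambi, a receptor without kinase activity that blocks signalling, was above background on 1 array.

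The Id genes, standard targets of BMP signalling that block helix-loop-helix factors, varied among tumours of a group. Id1 gave 10.58, 8.46 and 9.60 in knockout and 8.62, 7.99 and 9.31 in control tumours, a difference of 0.91 ± 0.54 (SE, limma adjusted p = 0.36). Id3 gave 7.92, 5.19 and 5.84 in knockout and 7.37, 5.80 and 7.55 in control tumours, a difference of -0.59 ± 0.73 (SE, limma adjusted p = 0.69). Knockout 1 was the highest of the 6 tumours and knockout 2 the lowest knockout tumour for both, and control 2 was the lowest control tumour for both. Id4 was above background on 2 arrays and was not tested.

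**Figure D3:**
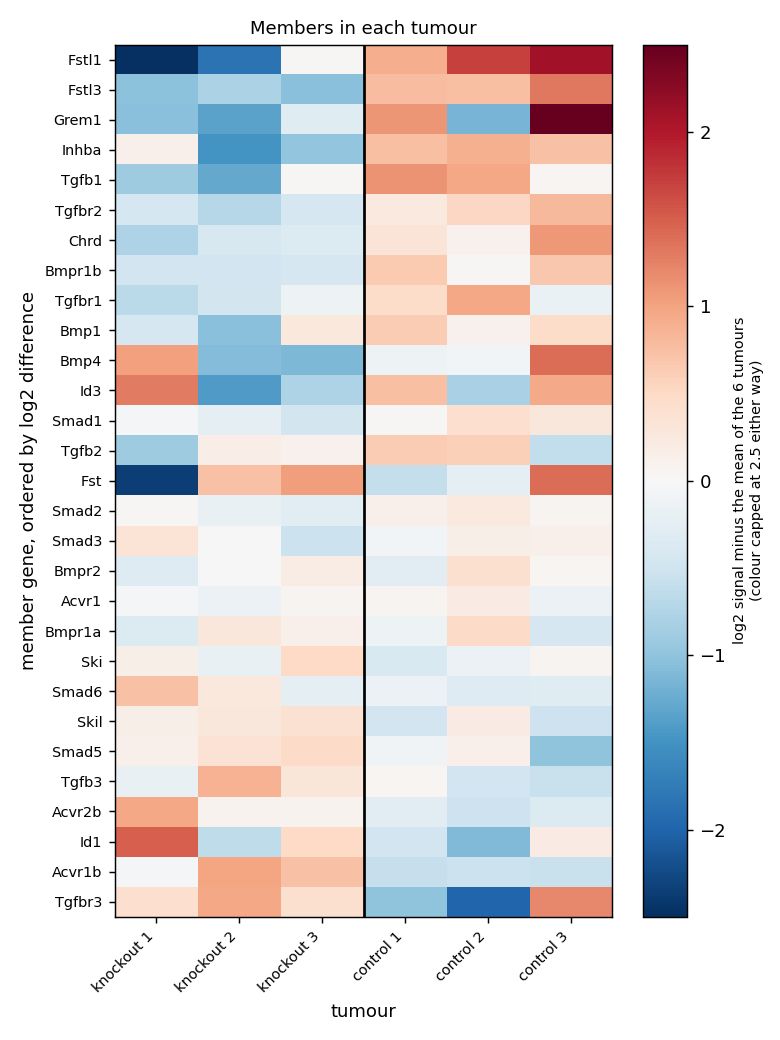
Each measured member (rows, from the lowest to the highest log2 difference) in the 3 knockout and 3 control tumours, as log2 signal minus the mean of the 6 tumours. Knockout 1 stands apart from the other knockout tumours for Fst, Id3 and Bmp4, and control 3 from the other control tumours for Tgfbr3.

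Over 17 processing alternatives Fstl3 was called in all 17, Fstl1 in 12, Tgfbr2 in 11 and Inhba in 7. Bmpr1b could be tested in 12 alternatives and was called in 3, and Acvr1b was called in 4 of 17. No difference of these 6 genes changed sign.

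**Figure D4:**
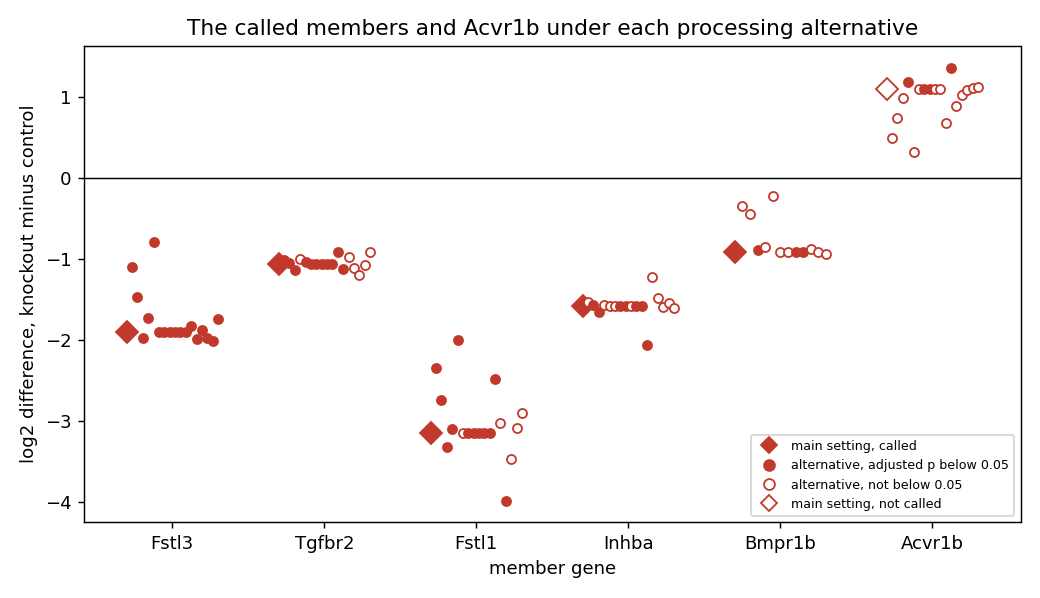
Log2 difference of the 5 called members and Acvr1b in the setting reported (diamonds) and under each processing alternative (circles, filled where the adjusted p was below 0.05). The estimates of Fstl3 run from -2.00 to -0.78 and are filled throughout, while those of Acvr1b lie above 0 and are mostly open.

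Another 113 genes of the pathway were set beside the members, of which 62 were measured. By limma 5 of them rose and 18 fell, where 4.47% of all measured genes rose and 5.63% fell. Their median log2 difference was -0.10, against 0.05 over all genes. The same shares are the background for each list below. Of these 62 genes 6 are also on the cell type lists used here. The 18 other intracellular regulators gave 1 rise (Ep300, a co-activator of Smads, 0.75) and 1 fall (Fkbp1a, which binds type I receptors, -0.98), with a median of 0.31.

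Extracellular antagonists outside the member list gave 4 falls among 5 measured, where 5.63% of all genes fell. Bmper, a secreted modulator of BMPs, had 4.72, 4.80 and 6.22 in knockout tumours, against 9.06, 8.89 and 9.48 in control tumours. Its log2 difference was -3.89 ± 0.41 (SE, limma adjusted p = 0.0033), and -1.82 with the authors' values. Nbl1, a BMP antagonist, gave -2.34, and the proteoglycans Bgn and Dcn, which bind TGF-beta, -2.43 and -3.97. Dcn is also on the fibroblast list. The remaining gene, Twsg1, which binds BMPs together with chordin and was named after its value was seen, gave 0.22 and was not called.

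Endoglin (Eng), the TGF-beta co-receptor of endothelial and stromal cells, had 5.24, 5.56 and 5.44 in knockout tumours, against 8.89, 8.48 and 7.73 in control tumours. It fell by 2.95 log2 units (SE 0.30, limma adjusted p = 0.0033). With the authors' values the difference was -1.25. Only 1 of 10 endothelial markers was measured, Esam, at -1.71 with overlapping groups and no call (limma adjusted p = 0.13). Another 5 were not above background on any array. How far endothelial cells moved with Eng was not tested.

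Genes that store or free latent TGF-beta went both ways. Itgb6, the epithelial integrin subunit that activates latent TGF-beta, had 8.86, 9.34 and 9.34 in knockout tumours, against 7.28, 7.51 and 7.36 in control tumours. It rose by 1.79 ± 0.21 log2 units (SE, limma adjusted p = 0.0041), and its other 2 measured probes were also called. Thbs1, a matrix protein that activates TGF-beta, gave -2.30, and Emilin1, which limits its processing, -2.17, both called. Emilin1 lay near the detection floor in knockout tumours 1 and 2, at 4.75 and 4.91. Its difference was -0.65 with the authors' values. Of the 10 measured genes of this list, 7 did not pass by their brightest probe. Among them Ltbp3, named after its values were seen, gave 0.63. A dimmer Ltbp3 probe gave 0.90 and was called (limma adjusted p = 0.041).

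Of 19 measured TGF-beta target genes 9 fell and 1 rose, where 5.63% and 4.47% of all genes did. Their median log2 difference was -1.37. Tagln, an actin-binding protein, gave -4.93, the collagen gene Col3a1 -1.70, the cell cycle inhibitor Cdkn2b -1.38 and Itgb6 1.79, all called. With the authors' values Col3a1 gave -0.43. Of the list, Col1a1, Col1a2 and Col3a1 are also fibroblast markers and Acta2 is a basal marker. Tagln is on no cell type list used here. The contractile genes Acta2, Myh11 and Actg2 fell in the same tumours, and their part in the fall of Tagln was not tested. Among 7 measured BMP target genes Id2, Hey1 and Gata3 rose by 3.36, 2.15 and 1.67, while Msx1 fell by 2.16 on the log2 scale. Gata3 is also on the luminal list, whose measured markers were higher in the same tumours.

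Of the 17 pathway genes that the naming rule took, 9 were still called whichever single tumour was removed. These were Bmper, Nbl1, Eng, Itgb6, Emilin1, Tagln, Col3a1, Id2 and Gata3. The others lost it without at least 1 tumour, 8 of them without control 1 (limma adjusted p from 0.051 to 0.13) and 7 without knockout 2 (0.052 to 0.12). Thbs1 lost it without control 1, Cdkn2b without control 1 or knockout 2, Bgn and Hey1 without control 1, control 3 or knockout 2, and Dcn without any tumour except knockout 3. Ep300 lost it without any tumour, Fkbp1a without any except knockout 1, and Msx1 without knockout 2 or any control tumour. Of the 9 still called, Bmper and Emilin1 were above background in 1 knockout and in all 3 control tumours. Their control tumours alone met the filter, which favoured a fall.

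**Figure D5:**
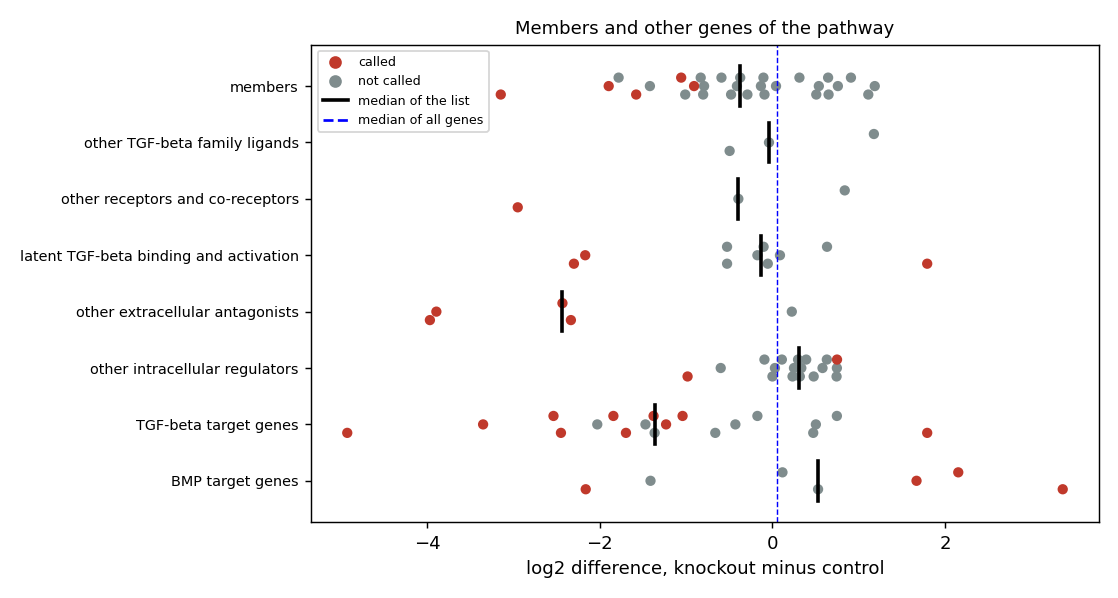
Log2 difference of each measured gene in the members and in 7 lists of other pathway genes, with called genes in red, the median of each list as a black bar and the median of all genes (0.05) as a dashed line. Genes on 2 lists are drawn in both. The extracellular antagonists and the TGF-beta target genes lie mostly below 0, with medians of -2.43 and -1.37.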

How the data were processed

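The authors deposited, per the file headers, bead-array signal intensity that was not normalized, and beside each intensity its detection p-value. In the detection column of knockout 1 other deposited content stood on 4 broken lines of 2 probes, which were left out. The authors also deposited normalized log2 values. The submitters' processing notes name lumi 2.6.0 without its settings. Those columns had medians from 7.40 to 7.41 and a Spearman correlation of 1 with the signals of their own array. This settles the order of probes within an array but not the direction between groups, and the scaling is unknown. An alternative used those normalized values.

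The neqc function of limma 3.58.1 (R 4.3.3, offset 16) inferred the background from the detection p-values, applied quantile normalization and took log2. The filter kept 15885 probes. Symbols came from the platform annotation, matched by gene number to the GRCm38.p6 gene table for 34805 probes, with 0 symbols changed. A single symbol was given to 34883 probes, several to 18 and none here to 10378. A gene is represented by its kept probe with the highest mean over all 6 arrays. Knockout minus control was tested two-sided with lmFit and eBayes at an adjusted p below 0.05 (Benjamini-Hochberg, all kept probes), which called 1461 probes (9.2%). Precision is limited by the number of arrays. Simulated data over 15885 probes had 200 changed probes and independent normal noise at the fitted variances. There the test recovered 87% of changes of 2 log2 units and 19% of changes of 1 unit, with 8 of 114 calls wrong. The real data gave 1461 calls, and the adjusted p is stricter where fewer probes change. The simulated rates are therefore not those of the real data.

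Every member is accounted for. Of the other pathway lists the called genes are named, at most the 4 of smallest p from each, with Twsg1 and Ltbp3 added. The members and lists were chosen with earlier results of these data known. The alternatives covered background, offset, normalization, filter, the authors' values, the replicate number as a block, the model's trend, probe choice and each tumour left out. No slide is given in the headers, so slide as a block was not run.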

Additional observations from a re-analysis of the deposited data

How the results depend on the processing

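Fstl3 stayed called under all 17 alternatives, with log2 differences from -2.00 to -0.78. The count of members called lower, 5, was 3 without background correction, 3 with the authors' values, 2 with median centring only and 2 without the filter. It ran from 1 to 4 when a tumour was left out. The count of members called higher, 0, was 1 with median centring only, with detection on all 6 arrays and at a detection p below 0.01, each time Acvr1b, and ran from 0 to 1 without a tumour (Acvr1b without knockout 1, Tgfbr3 without control 3). Median centring moved the median of all genes to 0.16, against 0.05. The median of the members, -0.37 with all tumours, ran from -0.36 to -0.19 without a tumour. Over all probes 1461 calls became 723 without the filter and ran from 375 to 1534 without a tumour. Pathway genes called lower, 18, were 9 without the filter and ran from 6 to 17 without a tumour, and those called higher ran from 3 to 4. With the replicate number as a block 3 members were called lower, Inhba (adjusted p = 0.052) and Bmpr1b (0.066) losing the call. Deviations of knockout and control tumours of the same number correlated at 0.23, 0.09 and 0.06 over probes. For each knockout tumour this was the highest of its correlations with the controls. Control 3 correlated slightly better with knockout 2 (0.075) than with knockout 3 (0.061). These values do not settle whether the numbers mark pairs. The labels name no pairs, and the main test used none. Uncalled differences near 0 turned sign. Bmpr1a gave -0.016 with cyclic loess and ran from -0.16 to 0.29 without a tumour, below 0 without knockout 2 (-0.09), knockout 3 (-0.01), control 1 (-0.01) or control 3 (-0.16). Bmpr2 gave 0.015 with median centring and ran from -0.27 to 0.07 without a tumour, above 0 without knockout 1 (0.03) or control 2 (0.07). Acvr1 gave 0.10 with median centring, Smad3 ran from -0.33 to 0.10 without a tumour, above 0 without knockout 3, and Fst from -1.0005 to 0.71, above 0 without knockout 1 (0.71) or control 3 (0.22). The cause of these changes was not tested. Cyp27b1 kept a difference under 0.03 throughout. Bmpr1b and Chrd lie near the detection floor, which limits what their values show.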
